A study of Mus musculus with 3 samples.

Results

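Untreated OP9-DL1 stromal cells were set against untreated T lineage cells grown on them, to describe what each population expressed before any vitamin C derivative was added. The comparison used the Cy3 channels of 2 two-colour Agilent mouse arrays, which hold untreated RNA. A probe entered when it was well above background, in a share of 0.5 or more of its spots, on one array or both, which 26602 of 41174 probes did. Of these, 20559 were above background on both arrays, 987 in stroma only and 5056 in T cells only, and 32 others were left out because every spot carried an outlier flag on one of the arrays. They represent 17646 of the 27727 genes on the array, each read from its brightest probe.

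The series holds 3 arrays, each with untreated RNA in Cy3 and RNA of the matching culture given 800 µM pAsc, a stable ascorbate phosphate, in Cy5. The stroma was the OP9-DL1 line in continuous culture in MEM, whose label gives the strain B6-C3Hf1 and the cell type osteoblast. The T lineage cells came from C57BL/6 bone marrow progenitors kept with OP9-DL1 stroma, Flt3L and IL7 for 14 days. A further array, outside the rule, held the same kind of culture after 17 days, and its Cy3 values are given beside those of day 14. There was 1 untreated sample per group, so no difference has a replicate check and no test across samples was possible. The T cells were freed of stroma only by a short step in which stromal cells were allowed to adhere, the number of animals behind each culture is not given in the sources used here, and the stroma is a single line. In such bulk RNA, fewer cells of a type and less RNA per cell cannot be told apart.

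OP9 is a stromal line from mouse calvaria, widely used to grow blood cells, and it carries the osteopetrotic mutation of Csf1, which leaves the mice without functional macrophage colony-stimulating factor. The DL1 version carries the Notch ligand Delta-like 1. Notch signalling diverts progenitors from the B to the T lineage, after which they pass through double-negative stages without CD4 or CD8, rearrange their receptor genes and then acquire both coreceptors. Stromal cells of this kind make matrix and cytokines and can turn towards bone, fat or contractile fates.

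Levels are background-subtracted Cy3 intensities divided by the 75th percentile of the array, which was 321 in stroma and 460 in T cells of day 14, and 517 at day 17. Levels of different genes come from different probes and are not set against each other. A gene is called at least 4-fold higher in one sample, and where the other sample was not well above background the fold is a lower bound, written "at least". The number of arrays limits the precision. Spots of one probe repeated on an array differed by a log2 SD of 0.220 in stroma and 0.199 in T cells, while different probes of one gene gave differences that varied by a pooled SD of 0.76, over 4904 genes. Probe positions are on mm9.

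Stroma and T cells stood far apart. Of the 17646 genes, 2179 were at least 4-fold higher in stroma, 12.3% of them, of which 1914 were measured in both samples. In T cells 2457 genes, 13.9%, were at least 4-fold higher, 1034 of them measured in both and 1423 through a bound. Together 26.3% of genes lay at least 4-fold apart. Among genes above background in both, the median log2 difference, stroma minus T cells, was 0.35. Scaling by spike-in RNA in place of the percentile moved that median to -1.03 and the counts to 720 in stroma and 5983 in T cells, so a difference under 4-fold is given below as a value with no direction. None of the 374 genes called among the lists, the leading genes and the paralog pairs changed sign under any scaling, though 292 of them stayed at least 4-fold apart with spike-in scaling. The plot of levels in both samples shows the separation.

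**Figure D1:**
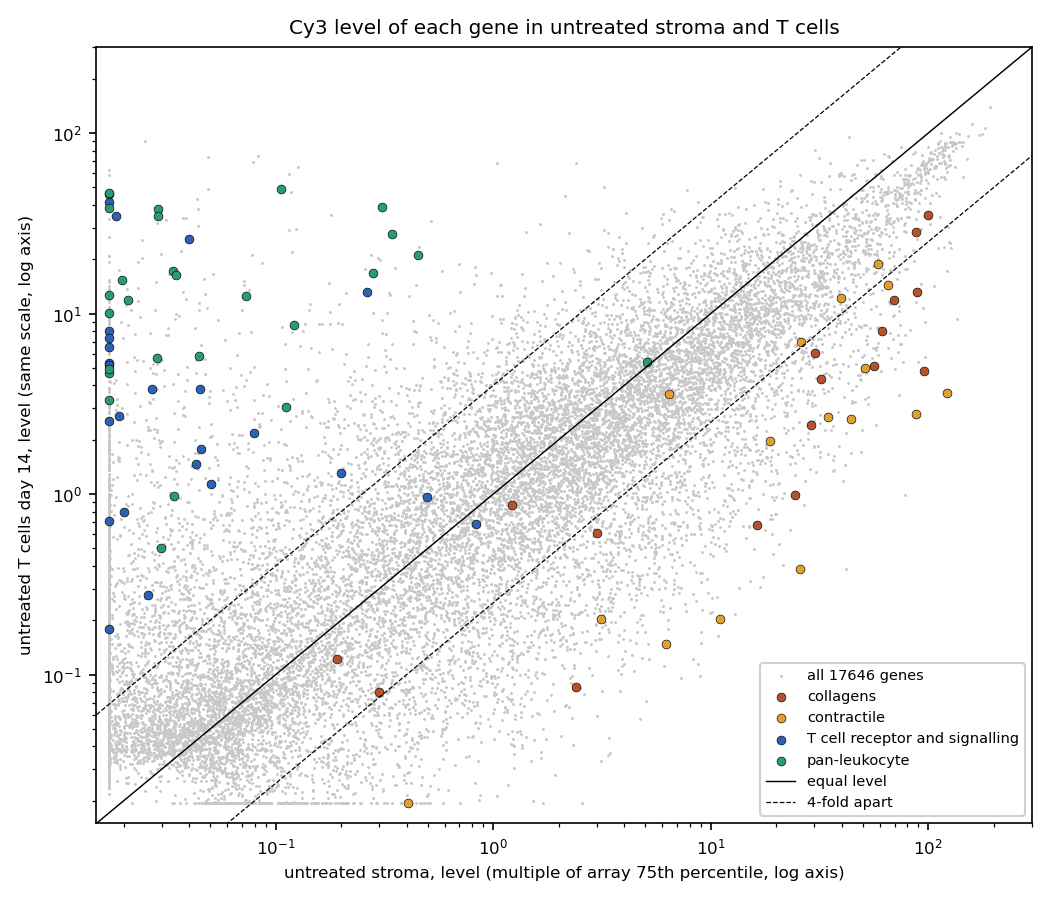
Level of each of 17646 genes in untreated stroma (x axis) and untreated T cells of day 14 (y axis), both as multiples of the array's 75th percentile on log axes, with values below the floor drawn at the floor. Grey points are all genes, coloured points are members of 4 gene lists, and dashed lines mark 4-fold differences. Collagen and contractile genes lie below the diagonal, while most T cell receptor and pan-leukocyte genes lie above the upper 4-fold line.

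The largest difference towards stroma among genes measured in both samples belonged to Fhl1. Fhl1, a LIM domain protein of muscle and connective tissue read at chrX:54046422-54046481, had a level of 42.1 in stroma, 0.384 in T cells of day 14 and 1.74 at day 17, and was 110-fold higher in stroma than at day 14. Mest, an imprinted gene of mesoderm, had a level of 3.14 in stroma, 0.0332 at day 14 and 0.215 at day 17, a 94.6-fold difference at day 14. Eln, which encodes elastin, had a level of 4.72 in stroma, 0.0567 at day 14 and 0.268 at day 17, and was 83.1-fold higher in stroma than at day 14. In all 3 genes the day 17 T cells lay between the other samples. Lrrc17, a secreted leucine-rich repeat protein, was 79.8-fold higher and had a stromal level of 78.6. Enzyme genes were among the 20 as well. Cdo1, the cysteine dioxygenase, was 90.9-fold higher, the glutathione transferase Gsta4 76.7-fold and Pdk4, a kinase that restrains pyruvate dehydrogenase, 53.3-fold. The remaining genes among the 20 largest differences were Lurap1l, Fibin, Eva1c, Cmbl, Sobp, Actc1, Scrn1, Slc1a6, Ephb3, Ddit4l, Acta1, Lmod1 and C1qtnf6, from 52.1-fold to 93.4-fold. The probes of Eva1c disagreed, with log2 differences from -0.30 to 6.26.

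Where T cells were not above background, the largest stromal bound belonged to Vtn, encoding the adhesion protein vitronectin, with a stromal level of 2.57, 0.0112 at day 14 and 0.118 at day 17, at least 132-fold. Itga8, an integrin alpha chain of mesenchyme, was at least 94.6-fold higher. Aldh3a1, an aldehyde dehydrogenase, was at least 87.2-fold higher, and Adh1, an alcohol dehydrogenase, at least 47.9-fold. Lgr5, a receptor for R-spondins, was at least 34.5-fold higher, with levels of 1.25 in stroma, 0.0363 at day 14 and 0.0392 at day 17. Other stromal genes with bounds from 26.5-fold to 76.6-fold were Tmeff2, Slc1a3, Afap1l2, Mab21l2, Rab40b, Slc26a7, Insyn1, Wnk4, Gng8, Aqp5, Npr3, Speer4b and Celf5. The lowest probes of Tmeff2 and Celf5 gave log2 differences of 1.36 and 1.88, short of the call.

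Genes of mesenchymal cells marked the stroma. In the list of mesenchymal surface proteins and transcription factors, 20 of 29 measured genes were called higher in stroma, 1 was higher in T cells, and the median difference was 2.88, against 0.08 for all 17646 genes. Foxc1, a forkhead factor of the bone marrow niche and skull mesenchyme, had a level of 49.2 in stroma, 1.70 at day 14 and 9.44 at day 17, 28.9-fold higher in stroma than at day 14. Its relative Foxc2 was 9.63-fold higher. Homeobox, zinc finger and Twist factors of mesenchyme were also called, with Prrx2 23.7-fold, Snai2 21.9-fold, Twist2 15.8-fold, Osr1 13.1-fold, Prrx1 11.8-fold and Twist1 7.20-fold higher in stroma. Among surface proteins, the receptor Pdgfrb had a level of 96.9 in stroma, 9.03 at day 14 and 28.2 at day 17, and was 10.7-fold higher. Pdgfra was 8.41-fold higher and Fap, a membrane protease of activated fibroblasts, 17.4-fold. Nt5e, which encodes CD73, was the exception, at least 50.5-fold higher in T cells with levels of 0.866 at day 14 and 0.826 at day 17. The probes of Cdh11 disagreed, with log2 differences from -1.42 to 4.01. Lepr and Tcf21 were not above background in either sample, and S100a4 was left out for an outlier flag.

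Collagens were bright in stroma. Of 17 chains, all above background in both samples, 12 were at least 4-fold higher in stroma and 0 in T cells, with a median of 2.75. Col3a1, a fibrillar collagen of soft tissue, had a level of 89.1 in stroma, 13.2 at day 14 and 28.3 at day 17, and was 6.74-fold higher in stroma than at day 14. The basement membrane chains Col4a1 and Col4a2 were 24.6-fold and 24.3-fold higher, Col11a1 27.9-fold and Col8a1 19.9-fold. The main chains of type I collagen fell short of the threshold. Col1a1 had levels of 99.5 in stroma, 35.2 at day 14 and 43.9 at day 17, and of its other probes the farthest gave a log2 difference of 3.78, a larger one than the brightest. Col1a2 had levels of 87.5, 28.2 and 45.2 in the same order.

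Other matrix genes behaved alike, with 29 of 38 at least 4-fold higher in stroma, 2 in T cells and a median of 2.50. Besides Eln, elastic fibre genes included Fbn1, encoding fibrillin, 14.1-fold higher, Fbln1 15.3-fold and Mfap5 22.1-fold. Postn, encoding periostin, had a level of 19.1 in stroma, 0.730 at day 14 and 3.99 at day 17, and was 26.1-fold higher. The gelatinase Mmp2 was 14.2-fold higher and its membrane-bound activator Mmp14 8.82-fold. The exceptions were proteases too. Mmp13, a collagenase, had a level of 0.123 in stroma, 1.04 at day 14 and 1.24 at day 17 and was 8.41-fold higher in T cells. Mmp3 was at least 5.79-fold higher there by the floor used. With a floor at the 1st percentile of signals well above background, the log2 difference of Mmp3 was -1.90, short of the call. The proteoglycan gene Dcn, with a level of 0.0476, and Lum, at 0.187, were dim in stroma.

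Contractile genes had the highest median of the 36 lists, 3.81, and 12 of the 16 that were measured were called higher in stroma. Actc1, the cardiac actin, had a level of 25.7 in stroma, 0.386 at day 14 and 2.46 at day 17, 66.5-fold higher in stroma than at day 14. Lmod1, which nucleates actin in smooth muscle, was 54.6-fold higher, the calponin gene Cnn1 41.9-fold, the myosin light chain gene Myl9 33.4-fold and Tagln, encoding transgelin, 31.7-fold. Tagln had levels of 87.8 in stroma, 2.77 at day 14 and 10.6 at day 17. Myh11, the smooth muscle myosin, was at least 20.8-fold higher from a stromal level of 0.405. Myocd, the cardiac and smooth muscle coactivator, was not above background, while Mrtfa, its relative, had levels of 25.9 in stroma, 6.98 at day 14 and 7.91 at day 17. For Acta2, smooth muscle actin, the brightest probe gave levels of 58.8, 18.8 and 20.3, a log2 difference of 1.64, while another probe gave 5.97.

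Serum response factor binds the CArG box and drives many contractile genes together with the coactivators just named. In RefSeq promoters on GRCm38.p6, taken as 250 bases before to 50 after the first listed start, a CArG box was found on either strand in 5 of 13 contractile genes that had a promoter in the table, Actc1, Cnn2, Myl9, Srf and Vcl. Across the promoters of genes at least 4-fold higher in stroma the share was 2.40% of 1586, in those higher in T cells 1.74% of 1324, and in all 27025 promoters 1.57%. The stretches before the start are shown for Actc1 (chr2:114052876-114053025, minus strand) and Cnn2 (chr10:79988450-79988599, plus strand), whose box lies in this stretch, and for Acta2 (chr19:34255374-34255493, minus strand), which holds no exact match there. Capitals mark exact matches to the CArG box or to the E box CANNTG. No mismatch was allowed, so near matches to the CArG box, such as ccctatatgg and ccttgtttgg in the Acta2 stretch, are not marked.
Actc1: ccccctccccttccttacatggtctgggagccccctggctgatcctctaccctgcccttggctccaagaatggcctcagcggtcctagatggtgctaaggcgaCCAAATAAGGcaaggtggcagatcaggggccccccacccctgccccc
Cnn2: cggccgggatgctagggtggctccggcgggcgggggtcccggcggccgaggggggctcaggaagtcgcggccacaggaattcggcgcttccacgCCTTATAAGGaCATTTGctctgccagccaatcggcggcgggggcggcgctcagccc
Acta2: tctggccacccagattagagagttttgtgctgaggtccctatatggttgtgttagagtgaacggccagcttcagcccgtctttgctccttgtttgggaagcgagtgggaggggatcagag
Actc1 was 66.5-fold higher in stroma and Cnn2, with levels of 65.2 in stroma, 14.4 at day 14 and 21.8 at day 17, 4.54-fold. A match describes the letters in this window and not a bound site.

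Genes linked to TGF-beta and to the coactivators YAP and TAZ also ran high in stroma, with 12 of 18 called higher there, 0 in T cells and a median of 2.92. The coactivator genes Yap1 and Wwtr1 were 9.31-fold and 8.18-fold higher, and their DNA-binding partner Tead2 had a level of 4.82 in stroma, 0.124 at day 14 and 0.846 at day 17, 38.8-fold higher in stroma. Among genes they are known to drive, Ccn2, encoding connective tissue growth factor, was 11.9-fold higher, Ankrd1 16.3-fold and Ccn1 5.04-fold. Of the ligands, Tgfb2 was 13.5-fold and Tgfb3 8.47-fold higher, while Tgfb1 had levels of 1.26 in stroma, 1.55 at day 14 and 1.09 at day 17.

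The label osteoblast was checked against the osteoblast list, and only some of its genes were high in stroma. Of 19 genes, 15 were measured, 6 were at least 4-fold higher in stroma and 1 in T cells, and the median was 1.69. Spp1, encoding osteopontin, had a level of 73.7 in stroma, 11.0 at day 14 and 33.7 at day 17, and was 6.69-fold higher. The keratan sulphate proteoglycan gene Omd was 40.0-fold higher, the homeobox gene Dlx5 15.2-fold and the phosphatase gene Alpl 4.54-fold. Bglap, which encodes osteocalcin, was 10.6-fold higher from a stromal level of 0.447. The regulators of bone formation were less clear. Runx2 had levels of 4.93 in stroma, 1.93 at day 14 and 2.49 at day 17, and Sp7, which encodes osterix, 0.143, 0.0444 and 0.134. Ibsp, Msx2, Dlx3 and Bmp2 were not above background in either sample. Tnfsf11, the osteoclast factor RANKL, was at least 74.3-fold higher in T cells, with levels of 3.71 at day 14 and 0.781 at day 17.

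Markers of other mesenchymal fates were present in the same RNA. Of 16 measured adipocyte genes, 9 were at least 4-fold higher in stroma and 0 in T cells, with a median of 2.09. Fabp4, a fatty acid carrier, had a level of 78.2 in stroma, 17.6 at day 14 and 28.9 at day 17, and was 4.45-fold higher. Adipoq, encoding adiponectin, was 31.0-fold higher, the regulators Cebpd and Cebpa 14.7-fold and 12.7-fold, the preadipocyte factor Zfp423 13.2-fold, the lipid droplet gene Plin4 10.5-fold and the lipase gene Lpl 10.2-fold. Pparg, the main regulator of fat cells, had levels of 10.6, 2.95 and 6.09. Late fat cell genes Cfd, Retn and Lep were not above background. In the chondrocyte list 5 of 11 genes were measured, and Col2a1, the cartilage collagen, with levels of 31.0, 7.26 and 13.3, was 4.27-fold higher, while Col9a1, Col10a1 and Matn1 were not above background.

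Skeletal muscle genes were also found, with 5 of 10 called higher in stroma and 1 in T cells, and a median of 2.15. Acta1, the skeletal actin, had a level of 6.13 in stroma, 0.112 at day 14 and 0.545 at day 17, a 54.7-fold difference at day 14. Cdh15, the muscle cadherin, was 35.5-fold higher and Tnnc1, a troponin, 34.1-fold. Myog, which encodes the regulator myogenin, was at least 8.06-fold higher from a stromal level of 0.221, while Myod1 had levels of 0.0953, 0.138 and 0.0867, and Myf5, Myf6 and Ckm were not above background. Among 6 measured endothelial genes, 0 were at least 4-fold higher in stroma, beside 12.3% of all genes, and 2 in T cells, beside 13.9%. With so few genes, a count of 0 in stroma lies near the share of all genes. Cdh5, Kdr and Tie1 were not above background in either sample. The summed level of the 6 measured genes was 0.628 in stroma, 2.05 at day 14 and 1.24 at day 17.

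**Figure D2:**
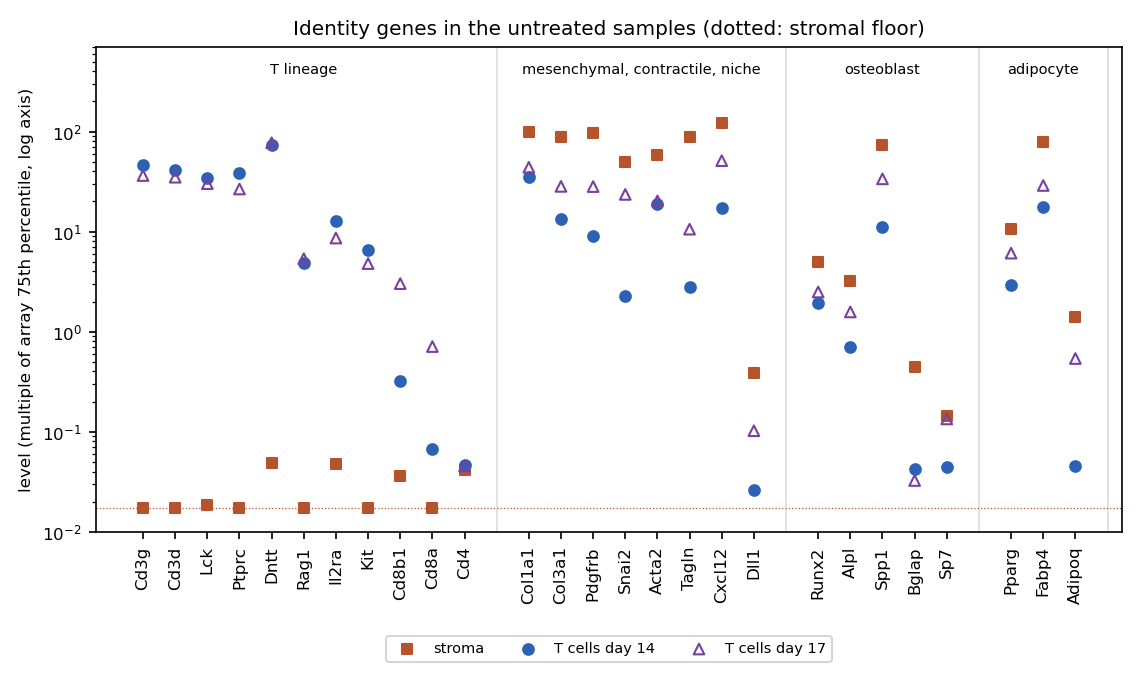
Levels of identity genes in untreated stroma (squares), T cells of day 14 (circles) and T cells of day 17 (open triangles), as multiples of each array's 75th percentile on a log axis. Values below a sample's floor are drawn at it, and the dotted line marks the stromal floor. Most T lineage genes lie at the stromal floor in stroma, mesenchymal genes are highest in stroma with day 17 between, and Cd4 lies near the floor in all 3 samples.

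Hox genes, which record a cell's position along the body axis, were called in stroma alone. Of 38 with a probe, 23 were not above background in either sample, 8 of 15 measured were at least 4-fold higher in stroma, and 0 were higher in T cells. Hoxa2 was 39.7-fold higher, Hoxa10 25.1-fold, Hoxa5 at least 25.6-fold, Hoxa4 12.0-fold, Hoxa7 9.25-fold and Hoxb3 at least 14.3-fold. Hoxb2 was 31.0-fold higher by its brightest probe, while another gave a log2 difference of -0.38. Of the HoxD cluster only Hoxd12 was above background, in stroma at 0.0668, and of the HoxC cluster only Hoxc4. Among 10 measured imprinted genes, 3 were at least 4-fold higher in stroma, Mest, the growth factor gene Igf2 at 11.1-fold and Sgce at 7.53-fold. The non-coding H19 had levels of 15.6 in stroma, 5.86 at day 14 and 5.85 at day 17.

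Niche factors that feed blood progenitors were among the stromal genes. Of 21 measured niche genes, 9 were at least 4-fold higher in stroma and 2 in T cells, with a median of 1.64. Dll1, encoding Delta-like 1, had a level of 0.389 in stroma, 0.0262 at day 14, where it was not above background, and 0.102 at day 17, and was at least 14.8-fold higher in stroma. Its probe lies at chr17:15504623-15504682 on the minus strand, and whether the introduced gene carries that stretch is not known here, so the value is no check of the transgene. The Notch ligand Jag1 had a level of 12.2 in stroma and was 11.3-fold higher. Dll4 had levels of 0.0374 in stroma, 0.0500 at day 14 and 0.0162 at day 17, Jag2 was at least 6.69-fold higher in T cells, and Dll3 was not above background.

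Cxcl12, the chemokine that holds progenitors in marrow, had a level of 122 in stroma, 17.3 at day 14 and 51.2 at day 17, and was 7.04-fold higher in stroma than at day 14. Csf1 RNA had levels of 12.9, 1.64 and 6.73 and was 7.89-fold higher, which says nothing of the mutated protein. Il34, the other ligand of the same receptor, was 4.78-fold higher. Growth factors were led by Ptn at no less than 14.5-fold, Bmp4 at 12.7-fold and Igf1 at no less than 11.8-fold. Il7, a cytokine that was also added to the cultures, was at least 4.03-fold higher by the floor used, from a stromal level of 0.0783. With a floor at the 1st percentile of signals well above background, the log2 difference of Il7 was 1.27, short of the call. Kitl, encoding stem cell factor, had levels of 2.25, 1.15 and 3.54, and Flt3l 0.402, 0.702 and 0.866. Csf2, encoding GM-CSF, was at least 28.6-fold higher in T cells.

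Counts of chemokines other than Cxcl12 lay near the shares of all genes, 12.3% called higher in stroma and 13.9% in T cells. Of 9 measured, 1 was at least 4-fold higher in stroma, the membrane-bound Cx3cl1 at 10.1-fold, and 1 in T cells, Cxcl10, a ligand of CXCR3, at no less than 43.2-fold. Ccl2, which draws monocytes, had levels of 3.71 in stroma, 11.8 at day 14 and 7.35 at day 17, and Cxcl1 1.25, 4.27 and 3.58. Both were above background in stroma and at day 14.

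The largest difference towards T cells among genes measured in both samples belonged to Crip1. Crip1, a LIM domain protein, had a level of 0.0435 in stroma, 43.2 at day 14 and 31.1 at day 17, and was 991-fold higher at day 14 than in stroma. Itgb7, the integrin beta chain of gut-homing and thymic lymphocytes, had levels of 0.0374, 33.8 and 29.2, a 903-fold difference. Srgn, encoding the granule proteoglycan serglycin, had levels of 0.0832, 75.1 and 51.9 and was 903-fold higher. All 3 were bright at both days and dim in stroma. Ltb, encoding lymphotoxin beta, was 514-fold higher, Tspan13 510-fold, Ly6d, a surface marker of early lymphoid cells, 183-fold and Plcg2, a phospholipase of immune receptors, 309-fold. Others among the 20 largest were Coro1a, Ifitm1, Lpxn, Mbp, Cd24a, Nrros, Rab19, Ccdc88b, Celf2, Itgae, Dok2, Cd7 and Itgal, from 172-fold to 463-fold.

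The largest bounds belonged to genes not above background in stroma. Gzma and Gzmb, granzymes of cytotoxic cells, were at least 3666-fold and 2827-fold higher in T cells. Gzma had levels of 62.8 at day 14 and 40.9 at day 17, and Gzmb 48.4 and 23.1. Cd163l1, a scavenger receptor gene known from gamma-delta T cells, was at least 2721-fold higher. The actin regulator Scin was at least 2279-fold higher, the phosphatase gene Dusp2 1059-fold, the myosins Myo1g and Myl10 1052-fold and 998-fold, and Rnf130 1134-fold, each a lower bound. A bound is taken against the gene's own stromal value or the stromal floor of 0.0171, the lowest signal well above background on that array, whichever is higher.

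Genes of the T cell receptor complex and its signalling marked the T lineage. Of 25 genes, 23 were at least 4-fold higher in T cells and 0 in stroma, 19 of the 25 were not above background in stroma, and the median was -6.42. Cd3g, a chain of the CD3 complex, had levels of 46.1 at day 14 and 36.4 at day 17 and was at least 2690-fold higher. Cd3d was at least 2428-fold higher, with levels of 41.6 and 35.0. The chain Cd3e was 6.55-fold higher by its brightest probe, with levels of 0.200 in stroma, 1.31 and 1.01, and its other probe gave a log2 difference of -4.44. The kinase gene Lck had levels of 34.7 at day 14 and 30.2 at day 17, at least 1886-fold higher, the adaptor genes Lat and Lcp2 at least 648-fold and 466-fold, and the kinase gene Zap70 at least 39.4-fold with levels of 1.78 and 1.97. Ptcra, which encodes the pre-T-cell receptor alpha chain of immature thymocytes, was at least 39.7-fold higher, with levels of 0.798 at day 14 and 1.99 at day 17. Fyn, shared by many cell types, had levels of 0.496 in stroma, 0.968 and 0.593.

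Promoters of 3 of these genes are shown, a kinase, the pre-receptor chain and a CD3 chain, because they mark the lineage and matches to motifs of T lineage factors lie in the stretch. They are RefSeq stretches on GRCm38.p6, 120 bases before the start, of Lck (chr4:129573642-129573761, minus strand, the first of the starts listed), Ptcra (chr17:46763713-46763832, minus strand) and Cd3e (chr9:45009612-45009731, minus strand). Capitals mark TGTGGT, the core bound by Runx factors, or the E box CANNTG, bound by E proteins, on either strand. At the other listed start of Lck (chr4:129558373-129558492, minus strand), the 120 bases before it held CANNTG and no TGTGGT.
Lck: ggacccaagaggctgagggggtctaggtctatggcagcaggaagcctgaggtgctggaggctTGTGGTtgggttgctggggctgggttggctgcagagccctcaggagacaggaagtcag
Ptcra: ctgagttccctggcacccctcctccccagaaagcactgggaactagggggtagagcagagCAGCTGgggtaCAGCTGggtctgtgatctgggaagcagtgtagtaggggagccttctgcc
Cd3e: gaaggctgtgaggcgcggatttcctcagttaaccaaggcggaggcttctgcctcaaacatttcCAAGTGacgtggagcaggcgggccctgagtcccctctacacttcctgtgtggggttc
Over windows of 250 bases before to 50 after the start, TGTGGT was found in 16.2% of promoters of genes at least 4-fold higher in T cells, 12.0% of those higher in stroma, 13.1% of those of all measured genes and 16.9% of all promoters. In the same order, CANNTG was found in 70.5%, 64.3%, 64.5% and 72.2%, and AGATAA, the site of GATA factors, in 8.84%, 4.92%, 7.16% and 11.4%. TATAAA was found in 9.29%, 7.76%, 8.72% and 14.2%. For each of these motifs the share in the T cell set lay above that of all measured genes and below that of all promoters.

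The transcription factors of the T lineage were present. Of 22 factors and Notch targets, 14 were at least 4-fold higher in T cells and 0 in stroma, with a median of -3.79. Tcf7, an early T lineage factor, had levels of 15.1 at day 14 and 7.25 at day 17 and was at least 535-fold higher. Bcl11b, which seals commitment to the T lineage, had levels of 9.03 and 10.5 and was at least 527-fold higher. Gata3 had a level of 0.294 in stroma, 20.4 at day 14 and 18.4 at day 17 and was 69.3-fold higher. Dtx1, a Notch target, was at least 1222-fold higher, the progenitor factor Myb 1553-fold, Ikzf1 440-fold and Satb1 403-fold, each a lower bound. Lef1 and Ets1 were 6.37-fold and 6.93-fold higher, from stromal levels of 1.90 and 1.27.

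Not all genes of this list kept to T cells. The receptor gene Notch1 had levels of 1.48 in stroma, 3.98 at day 14 and 2.62 at day 17, and Notch3 18.8, 5.21 and 8.58. Hes1, a Notch target in many tissues, had levels of 0.727, 0.713 and 0.551. Id3, an inhibitor of E proteins, had levels of 34.5, 14.0 and 17.5.

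The stage of the T lineage cells was read from recombination and surface genes. Dntt, which adds bases at receptor gene joints, had levels of 73.8 at day 14 and 77.2 at day 17 and was at least 1504-fold higher than in stroma. Rag1 was at least 283-fold higher, with levels of 4.85 and 5.36, while Rag2, at 0.0365 and 0.0460, was near the floor. Il2ra, encoding CD25 of double-negative cells, had levels of 12.9 and 8.62 and was at least 272-fold higher, and Kit, the stem cell factor receptor, had levels of 6.49 and 4.79 and was at least 379-fold higher. Cd4 was not above background in stroma and had levels of 0.0467 and 0.0454. Cd8a had levels of 0.0670 at day 14 and 0.710 at day 17 and Cd8b1 0.318 and 3.02. In the list of coreceptor and maturation genes, 8 of 13 were at least 4-fold higher in T cells, among them Cd24a at 253-fold. Itgae, the integrin chain CD103, was 201-fold higher, and Cd69 and Ccr9 at least 166-fold and 64.7-fold. Cd44 had levels of 11.6 in stroma, 6.25 and 3.84.

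Pan-leukocyte genes were the clearest group. Of 26, 25 were at least 4-fold higher in T cells, 16 were not above background in stroma and the median was -7.87. Ptprc, encoding CD45, had levels of 38.5 at day 14 and 26.7 at day 17 and was at least 2250-fold higher by its brightest probe. Its probes gave log2 differences from -11.1 to -3.78. Cd52 and Selplg, surface glycoproteins of leukocytes, were at least 1311-fold and 1211-fold higher. The exception was Evi2a, with levels of 5.09 in stroma, 5.37 and 4.35. In stroma the median level of the 26 genes was 0.336% of that in T cells of day 14.

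Genes of other blood lineages were found in the T cell RNA. Of 13 measured B cell genes, 11 were at least 4-fold higher in T cells than in stroma, and their summed level was 3.41 in stroma, 42.0 at day 14 and 10.2 at day 17. Vpreb1, a surrogate light chain of B cell progenitors, had levels of 0.441 in stroma, 14.5 at day 14 and 2.97 at day 17, and was 32.8-fold higher at day 14. The adaptor gene Blnk had levels of 0.107, 8.40 and 1.36 and was 78.8-fold higher, and Cd79b was at least 289-fold higher. All 3 were lower at day 17 than at day 14. Pax5, which fixes the B lineage, was not above background. Ebf1, a factor of B cells and of mesenchyme, was 7.73-fold higher in stroma.

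Cytotoxic and natural killer genes were frequent, with 13 of 16 called higher in T cells and 0 in stroma, a summed level of 7.56 in stroma, 187 at day 14 and 141 at day 17, and a median of -4.80. Besides the granzymes, Nkg7, a granule protein, was at least 715-fold higher, Cd7 180-fold, Klrd1 at least 165-fold and the receptor chain Il2rb 45.7-fold. The perforin gene Prf1 was dim, at 0.102, and Ncr1, a receptor of natural killer cells, was at 0.109. Eomes was not above background and Tbx21 had levels of 0.0515 in stroma, 0.144 and 0.303.

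Myeloid genes were measured in 15 of 21 cases, with 9 at least 4-fold higher in T cells, 1 in stroma and summed levels of 4.42 in stroma, 20.9 at day 14 and 13.5 at day 17. Tyrobp, an adaptor of myeloid and natural killer cells, was at least 107-fold higher, the protease gene Ctss 89.1-fold and Irf8 at least 63.9-fold. Elane, Prtn3, Itgam and S100a8 were not above background, and Mpo had a level of 0.169 at day 14. Cd14, a receptor for lipopolysaccharide, was the member higher in stroma, at 15.3-fold with a stromal level of 2.17. In the mast cell list, Cpa3, a carboxypeptidase also known from early progenitors, had levels of 12.0 at day 14 and 7.57 at day 17 and was at least 701-fold higher, while the chymase and tryptase genes Cma1, Mcpt4, Tpsb2 and Tpsab1 were not above background. Hbb-bt, a beta globin nearly identical to its neighbour and so uncertain, had levels of 14.2 at day 14 and 2.88 at day 17. The erythroid genes Klf1 and Alas2 were not above background. Of the 7 measured erythroid and megakaryocyte genes, 2 were at least 4-fold higher in stroma, the receptor gene Epor at 16.8-fold and the platelet factor gene Pf4 at no less than 22.8-fold, and 2 in T cells. Their summed levels, mostly Hbb-bt at day 14, were 2.28 in stroma, 14.8 at day 14 and 3.51 at day 17.

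Progenitor genes split, with 9 of 15 measured at least 4-fold higher in T cells and 1 in stroma, beside 13.9% and 12.3% of all genes. Their median of -2.35 turned to 0.016 with probes above background on both arrays only and was -0.93 against day 17. Bcl11a, Gfi1b and Mef2c fell short of the call with a floor at the 1st percentile of signals well above background. Their log2 differences were then -1.39, -1.28 and -0.80. Besides Kit, Lyl1 was at least 128-fold higher, Erg at least 80.0-fold and Cd34 38.8-fold, with levels of 0.158 in stroma, 6.15 at day 14 and 2.71 at day 17. Flt3, the receptor for the added Flt3L, was near the floor at 0.0526, and Lmo2 and Spi1 were not above background. Meis1, a Hox partner, was 14.3-fold higher in stroma by its brightest probe, while another gave a log2 difference of 0.60. Among epithelial genes, Cdh1 and Epcam, both also known from lymphoid progenitors and thymic cells, were at least 161-fold and 84.4-fold higher in T cells, while Krt5 had levels of 0.0743 in stroma, 0.0675 and 0.0678.

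Receptors for cytokines divided by population. Of 25, 12 were at least 4-fold higher in T cells and 4 in stroma, beside 13.9% and 12.3% of all genes. Il7r, through which the added IL7 acts, had levels of 4.13 at day 14 and 8.77 at day 17. By its brightest probe it was at least 230-fold higher in T cells, with a log2 difference of -2.97 as the median over its probes. The gene of its shared chain, Il2rg, was at least 214-fold higher. Cxcr4, the receptor for CXCL12, was at least 172-fold higher, with levels of 4.69 and 1.21. The members higher in stroma were Il11ra1 at 10.4-fold, Tnfrsf1a at 7.14-fold, Lifr at 5.25-fold and Il1r1 at 4.49-fold, and Lifr had a log2 difference of 1.40 as the median over probes, short of the call. Il6st, the signal chain shared by IL-11 and LIF receptors, had levels of 6.38 in stroma, 2.73 and 4.27. Integrin chains divided in the same manner, 6 of 18 higher in stroma and 7 in T cells. Itgb5, Itga11, Itga5, Itga3 and Itga1 were 5.89-fold, 7.27-fold, 6.82-fold, 4.79-fold and 4.78-fold higher in stroma, and Itga4, with probes from -8.31 to -1.50, at least 317-fold higher in T cells by its brightest.

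**Figure D3:**
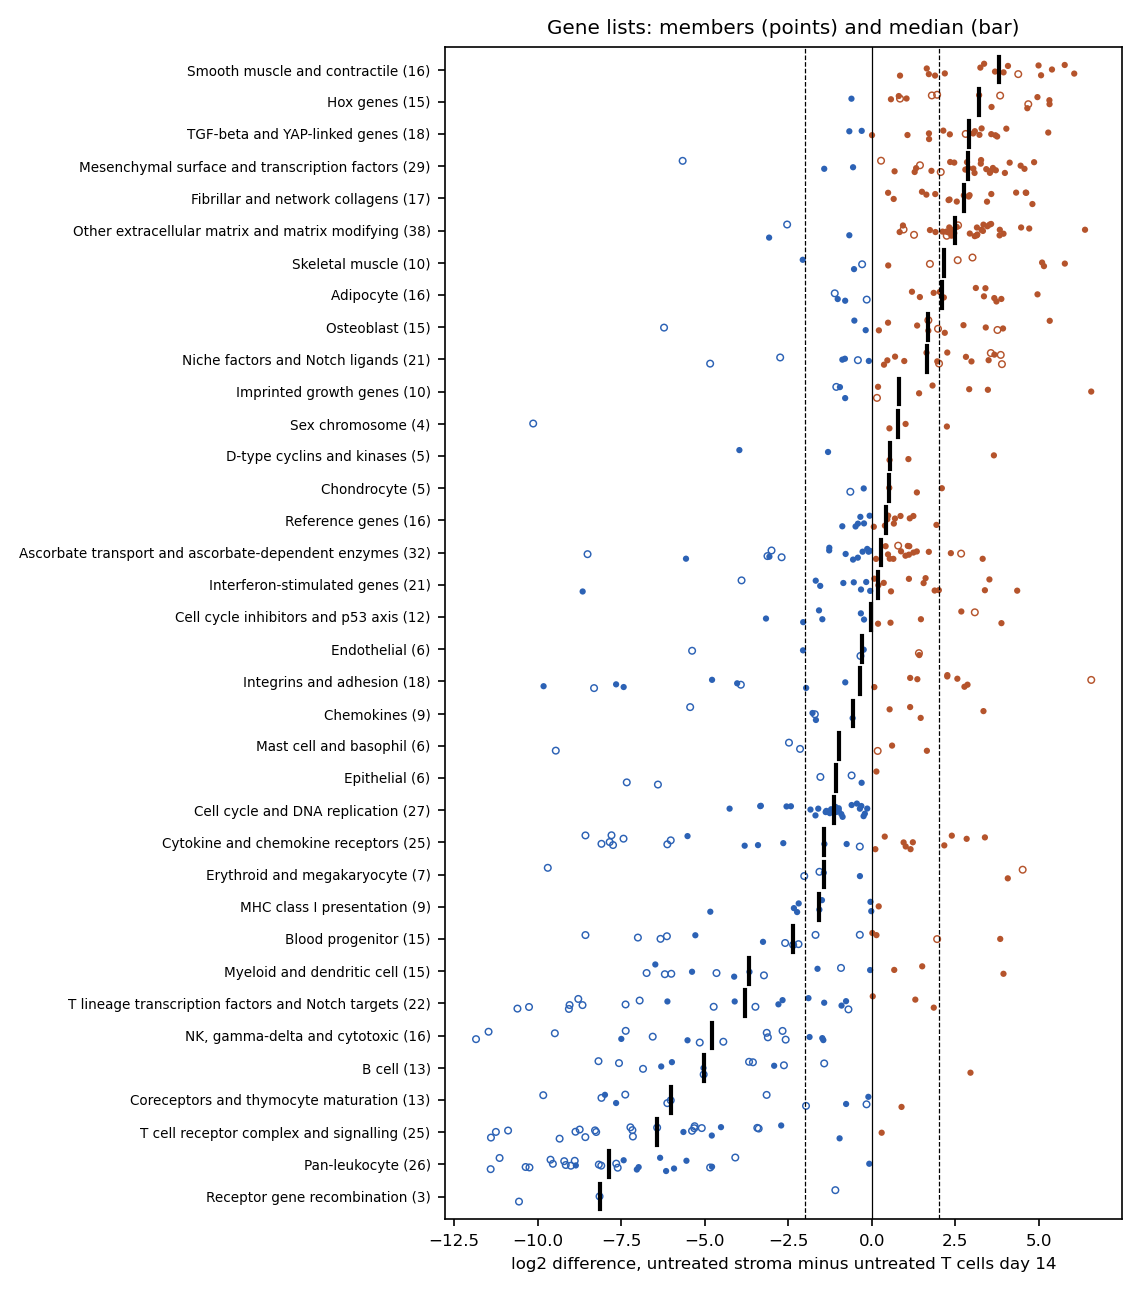
Log2 difference, untreated stroma minus untreated T cells of day 14, for the measured members of 36 gene lists, ordered by median. Filled points were above background in both samples, open points are lower bounds, black bars are medians, dashed lines mark 4-fold and the number of measured members stands after each name. With the percentile scaling drawn here, contractile, Hox, TGF-beta and YAP, mesenchymal and collagen lists have medians above 2. Pan-leukocyte and T cell lists have medians below -2. Spike-in scaling moves all values towards T cells.

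The 15 pairs of a leukocyte gene and a more widely used relative were picked for that known use. Their counts describe the pairs chosen and are no test. In 14 of 15 such pairs the leukocyte gene was at least 4-fold higher in T cells, beside 13.9% of all genes. In 7 the relative was at least 4-fold higher in stroma, beside 12.3% of all genes. These relatives include Ccnd1, whose partner Ccnd3 was not called. The plastin Lcp1 had levels of 0.0196 in stroma, 15.3 at day 14 and 10.7 at day 17, at least 782-fold higher in T cells, while Pls3 had 31.8, 2.75 and 10.8 and was 11.6-fold higher in stroma. The exchange factor Dock2 was at least 194-fold higher in T cells and Dock1 9.94-fold higher in stroma. For the kindlins, which activate integrins, Fermt3 was at least 287-fold higher in T cells and Fermt2 7.21-fold higher in stroma, and among Src-type kinases Lck and Src were at least 1886-fold and 9.91-fold apart in opposite directions. Hcls1 and Cttn, of the cortactin family, and Itgb2 and Itgb5 were split in the same manner.

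In the other pairs the relative lay within 4-fold. Rac2 was at least 513-fold higher in T cells, while Rac1 had levels of 31.6 in stroma, 15.7 at day 14 and 14.0 at day 17. Arhgdib was 46.7-fold higher in T cells, and Arhgdia had levels of 15.3, 7.33 and 7.36. The phosphatase gene Ptpn6 was 131-fold higher by its brightest probe, with a log2 difference of -1.11 as the median over its probes, which ends the call, and Ptpn11 had levels of 35.3, 15.5 and 15.5. Coro1a, Vav1, Was, Runx3 and Gmfg were likewise at least 4-fold higher in T cells, and Coro1c, Vav2, Wasl, Runx2 and Gmfb were within 4-fold. D-type cyclins were the exception: Ccnd3 had levels of 3.38 in stroma, 8.37 and 7.74, while Ccnd1 had 13.4, 1.07 and 2.66 and was 12.6-fold higher in stroma.

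**Figure D4:**
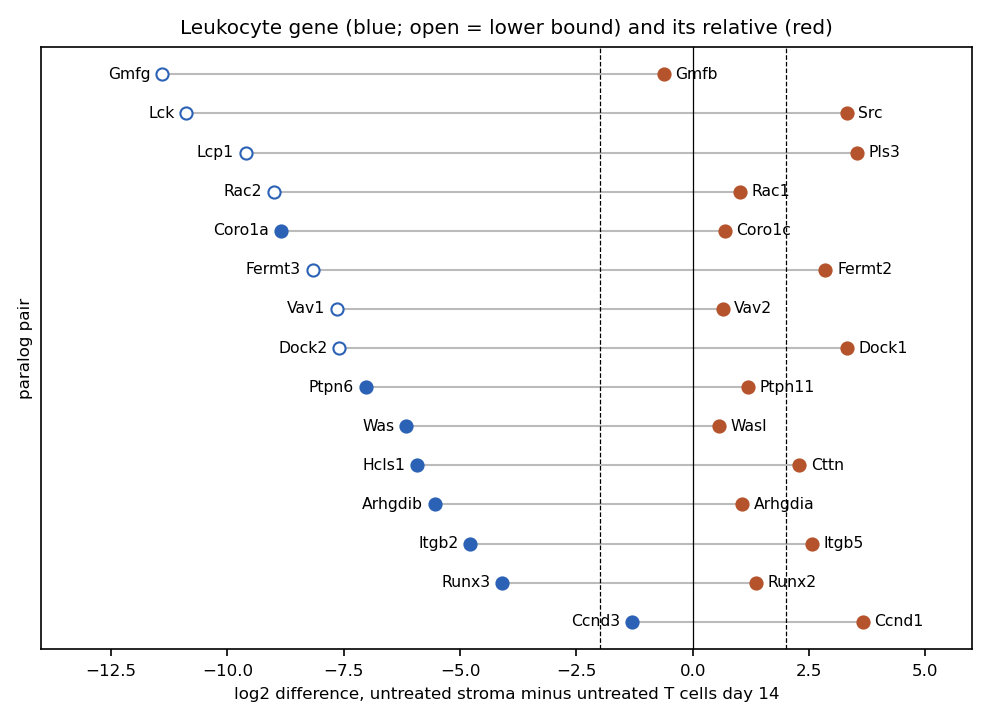
Log2 difference, untreated stroma minus untreated T cells of day 14, for 15 pairs of a leukocyte gene (blue) and its relative (red), 1 pair per row. Open circles are lower bounds, where the gene was not above background in stroma, and dashed lines mark 4-fold. The leukocyte member lies left of -2 in every pair except Ccnd3 with Ccnd1, and 7 relatives lie right of 2.

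Cell cycle genes differed by smaller amounts. Of 27 genes, 5 were at least 4-fold higher in T cells, beside 13.9% of all genes, and 0 in stroma, beside 12.3%. The median was -1.13. Mki67, which encodes the proliferation marker Ki-67, had levels of 1.64 in stroma, 31.3 at day 14 and 21.5 at day 17 and was 19.1-fold higher. Bub1, Top2a, Ccna2 and Cdc6 were 10.1-fold, 9.99-fold, 5.86-fold and 5.35-fold higher, and Plk1 had levels of 5.45, 6.30 and 6.39. As the median over probes Bub1 had a log2 difference of -1.83, short of the call. Cdk6, the D-cyclin kinase of blood cells, was 15.6-fold higher in T cells, with levels of 3.22, 50.2 and 31.1. Inhibitors were divided. Cdkn2b, Cdkn1a and Cdkn2a were 14.7-fold, 6.40-fold and at least 8.46-fold higher in stroma, and Trp53inp1 and Rb1 8.97-fold and 4.15-fold higher in T cells, the latter with -1.77 on the log2 scale as the median over probes, short of the call. None of 16 reference genes passed 4-fold, and Gapdh had levels of 60.6, 58.1 and 44.6.

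Genes on which vitamin C acts were measured at baseline in both populations. Of 32 transporters and ascorbate-dependent enzymes, 3 were at least 4-fold higher in stroma and 6 in T cells, with a median of 0.27, beside 12.3% and 13.9% of all genes. Slc23a2, the main ascorbate transporter of most cells, had levels of 0.693 in stroma, 0.319 at day 14 and 0.400 at day 17. Its relative Slc23a1 was dim, at 0.137 at day 14, and Slc2a3, a glucose transporter that also carries dehydroascorbate, was 47.1-fold higher in T cells with levels of 0.0617, 2.91 and 0.952. The oxygen sensor Egln3 had levels of 6.22 at day 14 and 1.78 at day 17 and was at least 363-fold higher in T cells. Of the DNA demethylases, Tet2 was at least 8.70-fold higher in T cells, while Tet1 had levels of 0.120, 0.124 and 0.104 and Tet3 0.924, 1.59 and 1.34. The histone demethylase gene Kdm6a was 8.36-fold higher in T cells. In stroma, Pam, which amidates peptides, was 9.96-fold higher by its brightest probe, the collagen lysyl hydroxylase Plod3 5.15-fold and the prolyl hydroxylase P4ha3 at least 6.37-fold.

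The count of interferon-stimulated genes lay near that of all genes, of which 12.3% were called higher in stroma and 13.9% in T cells. Of 21 measured, 4 were at least 4-fold higher in stroma, Ifit3 at 20.4-fold, Ifit1 at 11.5-fold, the ubiquitin-like Isg15 at 10.4-fold and Oas1a at 4.01-fold. In T cells Ifitm1 was 402-fold higher and Rsad2 at least 14.9-fold by its brightest probe, though the median over its probes, -1.90 on the log2 scale, fell short of the call. For antigen presentation by MHC class I, 4 of 9 measured genes were at least 4-fold higher in T cells and 0 in stroma. H2-K1 had levels of 2.41 in stroma, 68.7 at day 14 and 52.3 at day 17, 28.5-fold higher by its brightest probe. The median over its probes was -3.44 on the log2 scale. Stroma and T cells differ in strain as well as in cell type, which cannot be told apart here. Tap1, Psmb8 and Psmb9 were 5.03-fold, 4.71-fold and 4.56-fold higher in T cells. B2m had levels of 33.4, 29.0 and 28.4.

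Sex-linked genes differed between the samples. Xist, the RNA that silences an X chromosome in female cells, was not above background in stroma and had levels of 31.9 at day 14 and 13.5 at day 17. It was at least 1121-fold higher in T cells by its brightest probe, and its probes gave log2 differences from -10.1 to -4.16. The Y-linked genes Eif2s3y, with levels of 0.995 in stroma, 0.494 at day 14 and 1.72 at day 17, and Ddx3y, with 0.326, 0.227 and 0.672, were above background in stroma and at day 14. Kdm5d was 4.74-fold higher in stroma, with levels of 0.285, 0.0600 and 0.164. The labels do not give the sex of the animals.

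Matrix genes had a level in T cell RNA too. Over 53 collagen and matrix genes above background in stroma, the T cell level was a median of 16.7% of the stromal level at day 14, with quartiles of 9.11% and 21.4%, and 37.9% at day 17. It was higher at day 17 than at day 14 for 50 of the 53. Eln had the lowest share, 1.20% at day 14 and 5.67% at day 17, and Col1a1 was at 35.4% and 44.1%. Mmp13, at 841%, and Thbs1, at 159%, lay above the stromal level at day 14. Loxl2, Fmod, Col14a1 and Col15a1 followed, at 52.4%, 56.2%, 63.6% and 71.4%. The part of residual stroma in the stromal genes of the T cell RNA was not tested. In comparison with day 17, 731 of 16579 genes were at least 4-fold higher in stroma, 4.41%, and 1499 in T cells, 9.04%. That comparison shares the stromal sample with the one at day 14.

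**Figure D5:**
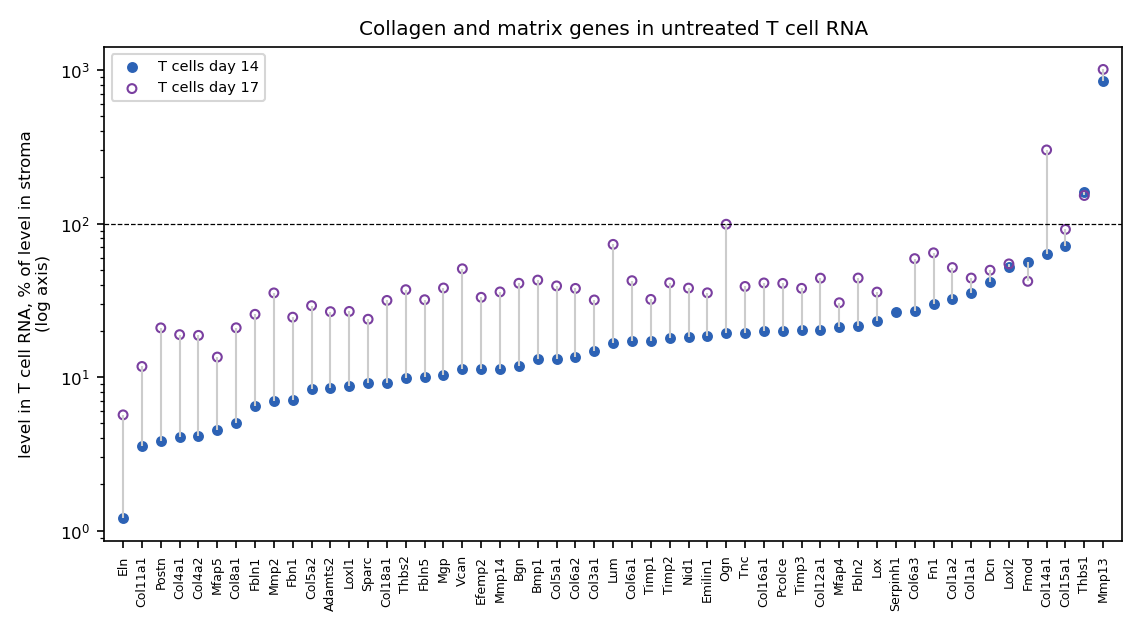
Level of 53 collagen and matrix genes in T cell RNA as a percent of their level in untreated stroma, on a log axis, for T cells of day 14 (filled) and day 17 (open), ordered by the day 14 value. The dashed line marks 100%, and Serpinh1 has no day 17 value because its spot carried an outlier flag. Day 17 lies above day 14 for 50 of the 53 genes.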

How the data were processed

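RNA was measured on 3 two-colour Agilent arrays, and per the labels Cy3 held the untreated RNA. Per the file headers, the deposited intensity of each spot (mean signal and median background, each channel) came from Feature Extraction 10.5.1.1 and was not normalized. Probes (41174) were named through RefSeq accessions (25255), symbols (6239) or synonyms (1600) of the GRCm38.p6 table, or by the file (8080). Spots with outlier flags were left out, background was subtracted, each array was divided by its 75th percentile, spots of a probe were averaged, and values were floored at the lowest signal well above background. There were 0 saturated spots. Between 52.7% and 62.7% of spots were well above background.

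With 1 sample a group there was no test, and genes were called at 4-fold. Named were the 20 largest differences and bounds each way, up to 8 members of each list with genes its label rests on, and all paralog pairs; cloned, predicted and near-identical genes were only counted. Other list members named were chosen after their values were seen. Members, lists and pairs were chosen with earlier results of these data known. The steps were tested on simulated data. Python 3.11.15, R 4.3.3 and limma 3.58.1 were used, the last for an alternative normalization. Some genes are not reported here.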

Additional observations from a re-analysis of the deposited data

How the results depend on the processing

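Each group had 1 sample, so no replicate could be left out. No paired analysis was possible because each group compared holds 1 sample. The count higher in stroma, 2179, became 731 against T cells of day 17, 720 with spike-in scaling, 4726 at 2-fold and 1030 at 8-fold. The count higher in T cells, 2457, became 1499 against day 17, 1039 with probes above background on both arrays only, 1391 with no background subtracted, 1321 with normexp, loess and Aquantile, 5983 with spike-in scaling, 4785 at 2-fold and 1357 at 8-fold. Calls higher in stroma made up 47.0% of all calls, 10.7% with spike-in scaling, 64.8% with probes above background on both arrays only and 32.8% against day 17. The median level of matrix genes in T cell RNA, 16.7% of stroma, became 37.9% at day 17 and 43.3% with spike-in scaling. Gene lists with a median past 4-fold, 17 of 36, became 11 against day 17 and 11 with probes above background on both arrays only, where the median of the Blood progenitor list turned from -2.35 to 0.016. With spike-in scaling the count was 16, but the medians moved towards T cells. Col3a1, Tbx15 and Hoxa7, which hold the collagen, mesenchymal and Hox medians, then had log2 differences of 1.38, 1.51 and 1.84, short of 4-fold. The middle contractile genes, Actg2 and Cald1, stayed past it at 2.31 and 2.57. The cause of these shifts was not tested.

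Of the 374 named genes called, 309 stayed called in the same direction with normexp, loess and Aquantile, 292 with spike-in scaling, 242 against day 17, 366 with the median over probes and 345 in the Cy5 channels, which hold treated RNA, while 226 had a value, all called, with probes above background on both arrays only. A floor at the 1st percentile of signals well above background, chosen after seeing the data, raised the stromal floor 2.62 times and the day 14 T cell floor 1.68 times. Bounds of genes at or under the old floor of the dimmer sample fell by as much as that sample's floor rose. Other bounds fell by less or not at all. With this floor 359 of the 374 stayed called, with counts of 2092 in stroma and 1968 in T cells.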
